A study of Mus musculus with 2 samples.

Results

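Large peritoneal macrophages are the main resident phagocytes of the mouse abdominal cavity, and 10 genes used to recognise them were followed in 2 libraries: Gata6, Rarb, Adgre1, Icam2, Vsig4, Selp, Cd5l, Prg4, Apoc1 and Garnl3. They were taken by symbol from a list of resident peritoneal macrophage genes, matched through the Entrez identifiers of the tables, and are 10 of the 15605 genes that the tables hold between them. All 10 were listed in both libraries. RNA came from peritoneal macrophages of C57BL/6 mice aged 6 to 8 weeks, either wild type or carrying the Lgmn-/- genotype, after 4 days together with EO771, a breast carcinoma cell line of the mouse. Lgmn encodes legumain, a lysosomal cysteine protease. Each genotype is represented by 1 library, and both genotypes had the co-culture, so neither library shows macrophages as they were taken from the mouse. Which exons are missing in the knockout, how many mice gave cells and whether a membrane separated the cell types were not stated in the labels used here. With 1 library per genotype no test across samples was possible, no difference has a replicate check, and higher and lower describe these 2 libraries.

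In the peritoneal cavity, retinoic acid made by neighbouring stromal and mesothelial cells acts on macrophages and sustains the transcription factor GATA6, which in turn maintains a set of genes particular to this site. Large peritoneal macrophages are recognised by high surface F4/80 and ICAM2 with low MHC class II, whereas small peritoneal macrophages, which descend from monocytes, show the reverse. Much of the site-specific programme is known to depend on signals from the cavity. Several of the genes are also used by other cells: mesothelium can express GATA6, endothelium carries ICAM2 and P-selectin, and liver macrophages express Cd5l and Vsig4.

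Promoter windows of 300 bases ran from 250 before to 50 after the start of a transcript. They were taken for 5 of the 10 genes from RefSeq sequence of GRCm38.p6, and Gata6 was not among the 5. The windows of Rarb, Cd5l and Vsig4 are shown, written 5′ to 3′ on the strand of the gene: Rarb because retinoic acid is the signal that reaches these cells through its receptor family, and Cd5l and Vsig4 because they had counts enough to be compared. Capitals mark the half-site GGTTCA followed, after any 5 bases, by the half-site AGTTCA, a pair modelled on the retinoic acid response element known in the Rarb promoter.
Rarb promoter, chr14:16575427-16575726, minus strand: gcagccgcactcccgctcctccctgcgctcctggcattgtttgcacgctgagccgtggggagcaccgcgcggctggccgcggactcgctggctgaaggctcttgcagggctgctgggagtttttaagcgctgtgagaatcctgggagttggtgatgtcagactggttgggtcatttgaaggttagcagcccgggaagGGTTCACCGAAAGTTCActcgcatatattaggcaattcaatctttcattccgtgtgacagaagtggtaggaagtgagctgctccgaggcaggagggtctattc
Cd5l promoter, chr3:87357631-87357930, plus strand: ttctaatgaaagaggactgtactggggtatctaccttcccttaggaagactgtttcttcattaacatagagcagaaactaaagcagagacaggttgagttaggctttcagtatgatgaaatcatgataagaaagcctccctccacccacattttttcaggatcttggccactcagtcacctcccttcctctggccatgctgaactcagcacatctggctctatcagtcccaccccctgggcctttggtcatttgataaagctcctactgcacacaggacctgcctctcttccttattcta
Vsig4 promoter, chrX:96293389-96293688, minus strand: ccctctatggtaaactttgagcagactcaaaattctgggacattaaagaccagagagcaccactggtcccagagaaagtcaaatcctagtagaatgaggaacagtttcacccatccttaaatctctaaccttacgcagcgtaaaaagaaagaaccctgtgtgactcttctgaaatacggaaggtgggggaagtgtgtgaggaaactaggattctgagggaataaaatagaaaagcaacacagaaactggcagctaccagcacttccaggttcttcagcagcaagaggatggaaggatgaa
The Rarb window held 1 match, beginning 53 bases before the start of the transcript. The pair was chosen because it is the known Rarb element, so its presence is a description, and 2 of 32851 promoter windows (0.00609%) held it on either strand. A pair of AGGTCA half-sites with the same spacing was in none of the 6 windows of these 5 genes and in 0.00913% of all windows. AGATAA, 1 exact form of the GATA motif, was in none of the 6 and in 11.2% of all. Other forms were not searched, and the Cd5l window shown holds TGATAA. The search therefore cannot say that the 6 windows lack GATA motifs. The promoter of Gata6 itself was not searched as one of the 6. The motifs were searched on both strands. Garnl3 has 2 of the 6 windows and Selp has 1.

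The libraries held 11885772 wild type and 11740214 knockout estimated counts. Lgmn itself had 23550 and 426 counts, in the order of the genotype labels. Counts were scaled with TMM factors, and a ratio is the knockout over the wild type scaled count with a 95% exact Clopper-Pearson interval that covers counting error only. Log2 ratios were taken after adding 1 scaled count. A gene was compared in size, with 2-fold as the threshold, if either library gave it 50 or more estimated counts. Ratios in this pair of libraries followed transcript length across all genes, so a log2 ratio with that trend subtracted, called length-adjusted, stands beside the main one. Library totals and deposited FPKM put the median log2 ratio of all genes compared at 0.24 and 0.23, against -0.0005 with TMM, so values on those scales are to be read from that shift.

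The 10 genes fell into an abundant and a scarce set. FPKM is scaled to transcript length and can be compared between genes. Adgre1, Cd5l, Icam2 and Vsig4 lay between 8.73 and 110.51 FPKM, in that order in both libraries, and Apoc1, Gata6, Selp, Rarb, Prg4 and Garnl3 between 0.20 and 2.10 FPKM. Icam2 and Vsig4 were not separated in the order of levels, since their Poisson intervals overlapped in both libraries. Within the scarce set the intervals of neighbours in the order also overlapped in both libraries. The abundant set gave 97.8% of the counts of the 10 genes in wild type and 98.2% in knockout cells.

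**Figure D1:**
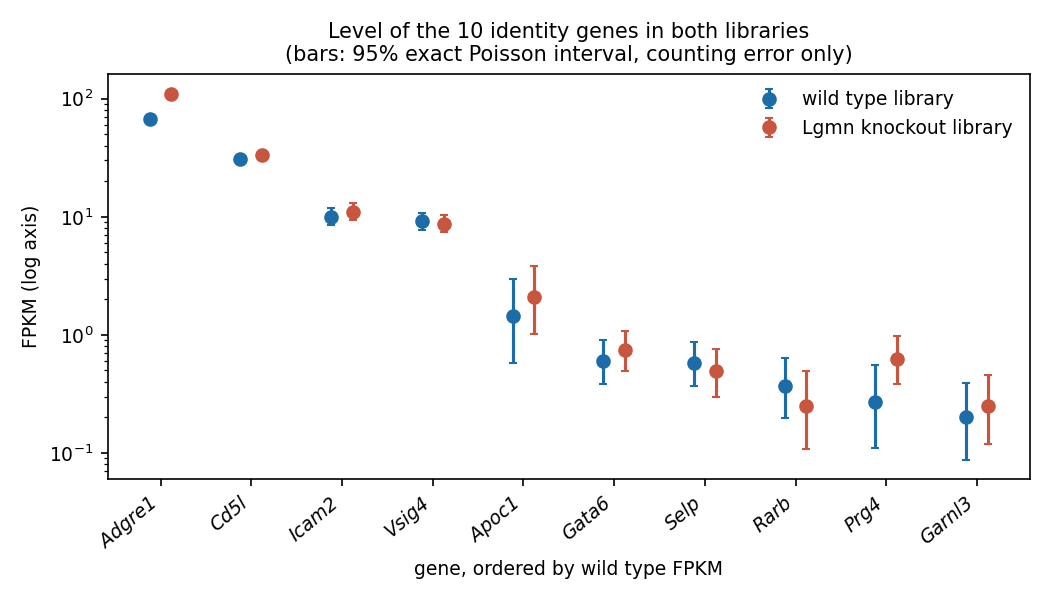
FPKM (log axis) of the 10 identity genes in the wild type and the Lgmn knockout library, with 95% exact Poisson intervals of the counts as bars. Adgre1, Cd5l, Icam2 and Vsig4 lie at 8.73 FPKM or above in both libraries, and the other 6 genes at 2.10 or below.

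Among the 4 genes with counts enough to be compared, none differed by 2-fold between the libraries. Of these, 0 were at least 2-fold higher, against 6.05% of all 9498 genes compared, and 0 at least 2-fold lower, against 1.74%. Such shares amount to less than 1 gene among 4. Their median log2 ratio was -0.11, and 0.10 after length adjustment, while that of all genes compared was -0.0005, and -0.011 after adjustment. The median of the 4 was 0.13 with library totals and with deposited FPKM, so its sign followed the scaling. The other 6 genes had at most 28 counts in either library and were too low for a comparison of size.

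The transcription factors come first. Gata6 (Entrez gene 14465), the zinc finger factor that defines these macrophages, had 23 estimated counts (0.60 FPKM) in wild type and 28 (0.74 FPKM) in knockout cells. It was listed in both at a low level, near the 29.5th and 28.4th percentile of the FPKM of all listed genes. The exact Poisson intervals, 14.6 to 34.5 and 18.6 to 40.5 counts, overlapped. Its ratio was 1.04 with an interval of 0.58 to 1.90, which leaves out a 2-fold difference in either direction as far as counting goes, though with library totals the interval was 0.685 to 2.24. Gata6os, a noncoding RNA that overlaps Gata6, had 2 and 1 counts.

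Rarb (Entrez gene 218772), the retinoic acid receptor beta whose promoter is shown above, had 13 counts (0.37 FPKM) in wild type and 8 counts (0.25 FPKM) in knockout cells. Its ratio of 0.528 had an interval of 0.19 to 1.37, so neither an equal level nor a level several fold lower could be told apart at this depth. The tables give Rarb 4 transcripts, and the mean transcript length they assign it was 2907.88 bases in the wild type and 2687 in the knockout library.

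The surface proteins include the most abundant of the 10. Adgre1 (Entrez gene 13733, chromosome 17, 57358581 to 57483529 in GRCm38) encodes F4/80, an adhesion G protein-coupled receptor used as a macrophage marker. It had 2641 counts (67.31 FPKM) in wild type and 4276 counts (110.51 FPKM) in knockout cells. It was higher in the knockout library, with a ratio of 1.39 and an interval of 1.32 to 1.46. Its log2 ratio of 0.47, or 0.39 when adjusted for length, lay at the 79.0th percentile of all genes compared, and at the 85.0th after adjustment. It did not reach 1.5-fold, which 16.4% of all genes compared did in the higher direction, but its ratio with library totals was 1.64. Adgre1 was the one gene of the 10 whose interval left out equal scaled levels, and its log2 ratio stayed above 0, from 0.39 to 0.71, under the 10 alternative settings that give single genes a value.

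Icam2 (Entrez gene 15896, chromosome 11, 106377656 to 106388139) encodes an adhesion molecule that binds the leukocyte integrin LFA-1. It had 139 counts (10.05 FPKM) in wild type and 151 counts (11.07 FPKM) in knockout cells. Its ratio was 0.932 with an interval of 0.735 to 1.18. The log2 ratio of -0.10 was 0.14 with library totals and with deposited FPKM and 0.18 after length adjustment.

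Vsig4 (Entrez gene 278180, chromosome X, 96247201 to 96293438) encodes CRIg, the complement receptor through which resident macrophages take up particles coated with C3 fragments. It had 156 counts (9.14 FPKM) in wild type and 147 counts (8.73 FPKM) in knockout cells. The ratio was 0.808 with an interval of 0.641 to 1.02. Its log2 ratio was -0.30, the lowest of the 4 genes compared, and -0.06 when adjusted for length.

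Selp (Entrez gene 20344, chromosome 1, 164115264 to 164150026), for P-selectin, an adhesion receptor of platelets and endothelium that large peritoneal macrophages also transcribe, had 24 counts (0.58 FPKM) in wild type and 20 counts (0.49 FPKM) in knockout cells. Its ratio of 0.715 had an interval of 0.375 to 1.35. The overlapping noncoding RNA Gm16548 had 5 and 4 counts.

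Among the secreted proteins, Cd5l (Entrez gene 11801, chromosome 3, 87357881 to 87371074) was the second most abundant of the 10. It encodes the apoptosis inhibitor of macrophages, a scavenger receptor cysteine-rich protein that macrophages release and that acts on lipid metabolism. It had 757 counts (30.94 FPKM) in wild type and 811 counts (33.61 FPKM) in knockout cells. The ratio was 0.919 with an interval of 0.831 to 1.02. Its log2 ratio was -0.12, and it was 0.12 with library totals and with deposited FPKM and 0.01 after length adjustment. The intervals of Adgre1 and Cd5l did not overlap, which compares counting error in this pair of libraries and not the genotypes.

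Prg4 (Entrez gene 96875, chromosome 1, 150449412 to 150466221) encodes lubricin, a mucin-like glycoprotein that coats joint and serosal surfaces. It had 7 counts (0.27 FPKM) in wild type and 20 counts (0.63 FPKM) in knockout cells, and its ratio of 2.45 was the farthest from 1 of the 10. Its interval ran from 0.996 to 6.86, and from 1.17 to 8.10 with library totals. If genes needed only 10 counts, or none, Prg4 would be the single gene of the 10 past 2-fold, against 7.76% and 9.34% of all genes. Its annotated span overlaps that of Tpr, a nuclear pore gene with 335 and 734 counts, and no source used here says whether counting used strand, so reads of both genes may not be fully separated. The mean transcript length assigned to Prg4 also differed, at 2191.92 and 2675.79 bases.

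Apoc1 (Entrez gene 11812, chromosome 7, 19689480 to 19692659) encodes a small apolipoprotein of the cluster that holds Apoe. It had 7 counts (1.45 FPKM) in wild type and 10 counts (2.10 FPKM) in knockout cells, from a transcript of 432 bases, the shortest of the 10. Its ratio of 1.23 had an interval of 0.421 to 3.79. Apoe, which encodes the apolipoprotein E that macrophages secrete, had 91330 and 152526 counts and a ratio of 1.43 (1.42 to 1.44).

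Garnl3 (Entrez gene 99326, chromosome 2, 32986225 to 33131859), which encodes a protein with a Rap GTPase-activating domain, had 8 counts (0.20 FPKM) in wild type and 10 counts (0.25 FPKM) in knockout cells. Its ratio of 1.07 had an interval of 0.381 to 3.13. The counts of the 6 scarce genes together were 82 and 96, a ratio of 1.0 with an interval of 0.74 to 1.37. Gata6 and Selp gave the most counts to that sum, which can hide opposite differences.

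**Figure D2:**
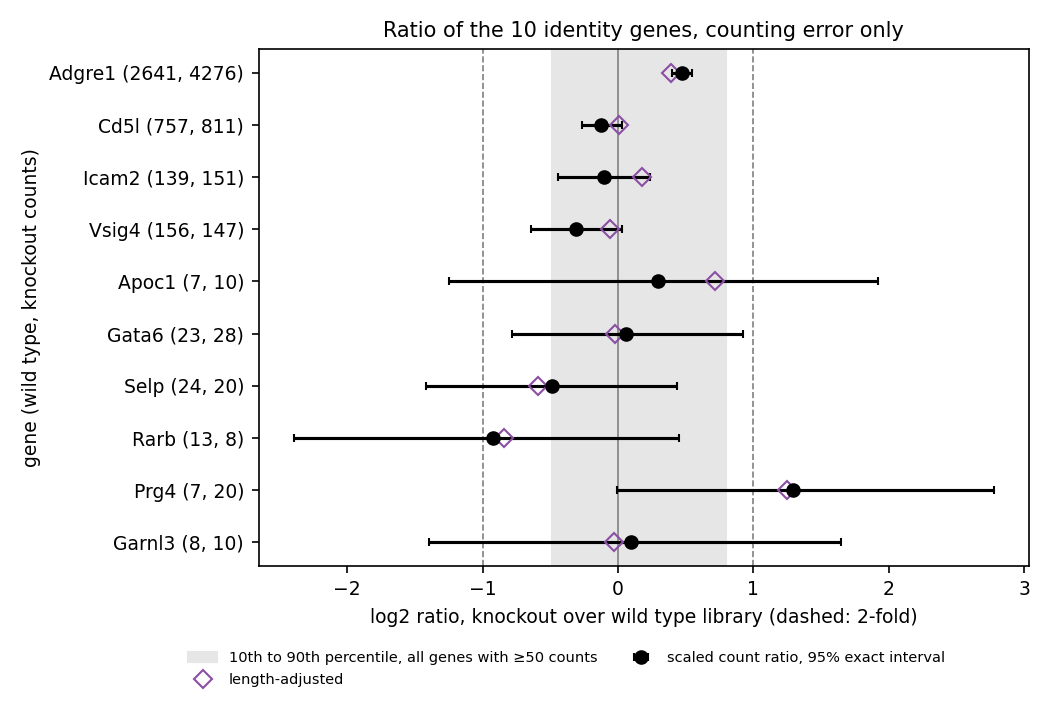
Log2 ratio of knockout over wild type scaled counts for the 10 identity genes, without an added count, with 95% exact intervals, the length-adjusted values as diamonds, 2-fold as dashed lines and the 10th to 90th percentile of all genes compared (-0.49 to 0.80) as a grey band. Adgre1 is the gene whose interval does not reach 0, and the intervals of the scarce genes span more than those of the abundant ones.

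**Figure D3:**
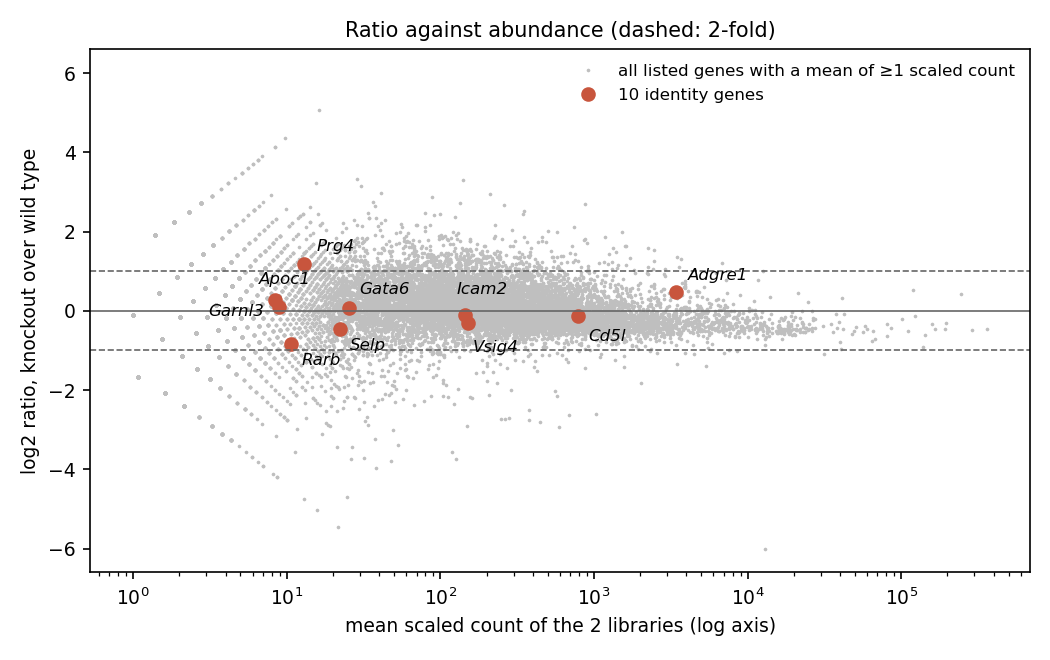
Log2 ratio against the mean scaled count (log axis) for all listed genes with a mean of at least 1, with the 10 identity genes marked. The 6 scarce genes lie at 7 to 28 counts per library, where the ratios of all genes spread more than at high counts, and Adgre1, Cd5l, Icam2 and Vsig4 lie between the 2-fold lines.

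The label of the cells was checked against general macrophage markers. All 13 were listed in both libraries, from Lyz2, lysozyme, at 13191.71 and 12481.11 FPKM to Mertk, a receptor for dying cells, at 5.86 and 16.31 FPKM. Of the 13, 2 were at least 2-fold higher, Mertk among them, and 0 lower, with a median log2 ratio of -0.03, or 0.20 when adjusted for length. Csf1r, the receptor of the macrophage growth factor, had 3932 and 8936 counts and a ratio of 1.95 (1.88 to 2.02), while Cd68, a lysosomal glycoprotein, had 77259 and 55334 counts and a ratio of 0.614 (0.608 to 0.621). Relative to these genes the level of Adgre1 differed in opposite directions. Its FPKM was 80.4% of that of Csf1r in wild type and 57.3% in knockout cells, and 1.30% and 2.94% of that of Cd68.

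Other genes known from large peritoneal macrophages also went both ways. All 18 were listed in both libraries and 12 had counts enough to be compared. Cxcl13 and F5 were past 2-fold in the higher direction and Serpinb2 in the lower, 2 and 1 of the 12, and 9 lay between. The median log2 ratio was -0.17, and -0.06 when adjusted for length. After that adjustment 1 was past 2-fold in the higher direction, Cxcl13, and 2 in the lower, Serpinb2 and Fn1, the matrix protein fibronectin, whose log2 ratio went from -0.38 to -1.20. Cxcl13, a chemokine that attracts B cells, had 19 and 89 counts and a ratio of 4.02 (2.43 to 6.99). F5, coagulation factor V, had 20 and 66 counts and a ratio of 2.83 (1.70 to 4.93), and length adjustment took its log2 ratio from 1.46 to 0.70. Serpinb2, an inhibitor of plasminogen activators, had 849 and 425 counts and a ratio of 0.429 (0.381 to 0.483). The most abundant of the list were Saa3, an acute phase protein, at 1030.7 and 987.97 FPKM and F10, coagulation factor X, at 147.23 and 169.33 FPKM, and both lay between.

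Some genes of this list were as scarce as Gata6. Tgfb2, a growth factor known to depend on GATA6, had 26 and 34 counts, and Timd4, a phosphatidylserine receptor of resident macrophages, 20 and 16. Alox15, a lipoxygenase typical of these cells, had 4 and 3 counts. These 3, Fn1, Cd3g, Lyve1, Cd226, Cx3cr1 and Folr2 were picked for mention after their values were seen.

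Genes linked to small peritoneal macrophages and monocytes ranged widely in FPKM. Lyve1, Cd226 and Cx3cr1 lay below Gata6 and Rarb in both libraries, and the MHC class II genes far above. The order against Rarb was not resolved, since the count intervals of Lyve1, Cd226 and Cx3cr1 overlapped that of Rarb in both libraries. In wild type the count interval of Cx3cr1 also overlapped that of Gata6. Counts are not scaled to transcript length, and Cd226 is shorter than Gata6, at 2487 against 3194 bases. The order of Cd226 and Gata6 in wild type FPKM was therefore not resolved either. The MHC class II genes H2-Aa and H2-Ab1 had 405.46 and 264.89 FPKM in wild type and 581.89 and 433.73 FPKM in knockout cells, each above the FPKM of Adgre1 in the same library. Cd74, their invariant chain, had 524.65 and 1058.22 FPKM and a ratio of 1.71 (1.66 to 1.75). Of 16 genes, 12 could be compared, with 1 at least 2-fold higher, Ccr2, 1 lower, Retnla, and 10 between, and their median log2 ratio was 0.23, or 0.15 when adjusted for length. With the trend subtracted, 2 were past 2-fold in the higher direction, Ccr2 and Cd74, and 0 in the lower, as Cd74 went from 0.77 to 1.03 and Retnla from -1.06 to -0.66. Ccr2, the chemokine receptor of monocytes, had 28.14 and 101.53 counts and a ratio of 3.13 (2.04 to 4.93). Retnla, a resistin-like protein of alternatively activated macrophages, had 51 and 28 counts and a ratio of 0.471 (0.286 to 0.761). Of the 12 compared, 7 had a log2 ratio above 0 and 5 below. Plac8, with 462 and 269 counts, and Folr2, with 1167 and 690, lay just short of 2-fold lower. Their ratios were 0.5 (0.428 to 0.582) and 0.507 (0.461 to 0.558), and their length-adjusted log2 ratios -0.62 and -0.69. The summed FPKM of the list was 1560 and 2460, most of it from H2-Aa, H2-Ab1 and Cd74. That of the 10 identity genes was 121 and 168. The 18 other large peritoneal macrophage genes summed to 1340 and 1300, most of it from Saa3. Such sums rest on a few abundant genes and do not measure the shares of the cell types. In a bulk library, fewer cells of a type and less RNA per cell cannot be told apart.

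**Figure D4:**
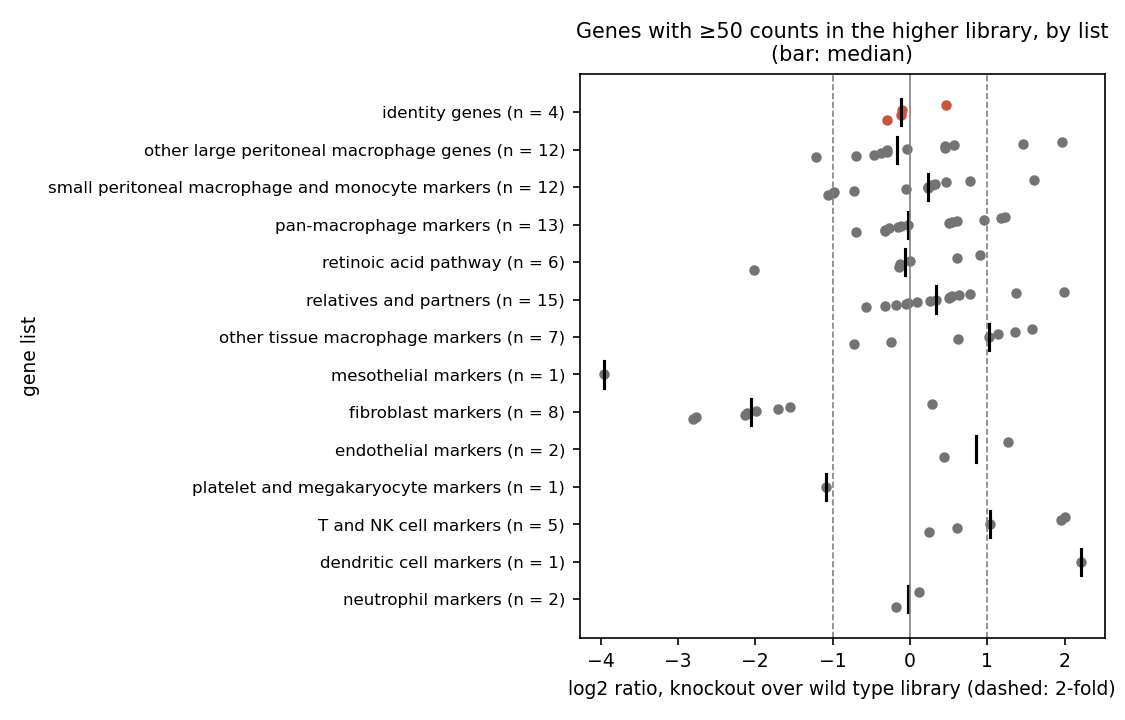
Log2 ratio of each gene that either library gave 50 or more counts, by gene list, with the list median as a bar and 2-fold as dashed lines. The 4 identity genes compared lie from -0.30 to 0.47, and 7 of 8 fibroblast markers lie below -1.

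Of the retinoic acid pathway, 13 of 17 genes were listed and 6 could be compared, with 0 at least 2-fold higher and a median log2 ratio of -0.07, or 0.06 when adjusted for length. Rxra, the partner receptor of Rarb, had 223 and 488 counts and a ratio of 1.88 (1.60 to 2.21), and length adjustment took its log2 ratio from 0.91 to 0.48. Rara, the receptor alpha, had 63.24 and 113.07 counts and a ratio of 1.54 (1.12 to 2.13), and Rxrb 201 and 234 counts and a ratio of 0.999. Dhrs3, a reductase that returns retinaldehyde to retinol and answers to retinoic acid, had 2249 and 2387 counts. Aldh1a2, a synthesis enzyme of retinoic acid chosen after its values were seen, had 26 and 12 counts.

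Most fibroblast markers and the 1 mesothelial marker with counts enough to be compared were lower in the knockout library, while the identity genes compared were not past 2-fold. Of 8 fibroblast markers compared, 7 were at least 2-fold lower and 0 higher, and the list summed to 92.0 and 27.6 FPKM. Of 12 mesothelial markers 11 were listed, 10 of them below 50 counts and 6 in the wild type library alone, at 1 to 7 counts each, Muc16 was listed in neither, and the sum was 6.24 and 0.83 FPKM, of which Krt19 gave 4.65 and 0.37. Wt1, the mesothelial transcription factor, had 13 and 3 counts, while Gata6 had 23 and 28. The part of these cells in the counts of Gata6, Rarb and Prg4 was not tested.

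None of the other GATA factors and their cofactors reached 50 counts. Zfpm1, a cofactor of GATA proteins, had 29 and 31 counts, Gata5 had 16.79 and 22.82, and Gata2 had 5 and 7. Gata6, at 0.60 and 0.74 FPKM, lay near Gata5, at 0.42 and 0.58 FPKM.

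Partners of the surface proteins were mostly abundant and mostly between the 2-fold lines. Of 22 relatives and partners, 15 could be compared, with 2 at least 2-fold higher, 0 lower and 13 between, and a median log2 ratio of 0.34, or 0.24 when adjusted for length. Itgal, the alpha chain of LFA-1 that binds ICAM2, had 214 and 993 counts and a ratio of 3.98 (3.43 to 4.64), whereas its beta chain Itgb2 had 11600 and 13281 counts and a ratio of 0.982 (0.958 to 1.01). Tlr2, a receptor to which lubricin can bind, had a ratio of 2.60 (2.20 to 3.07). C3, the source of the ligands of CRIg, had 777 and 1543 counts and a ratio of 1.70 (1.56 to 1.86). Cd36, through which cells take up the Cd5l protein, had 26332 and 27095 counts and a ratio of 0.883.

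Lymphocytes also carry LFA-1, and some T and NK cell markers were higher beside Itgal, at 102 and 195 FPKM in sum, most of it Gzma, a granzyme with a ratio of 1.52 (1.41 to 1.65), with 3 of 5 genes compared at least 2-fold higher and 0 lower. Klrd1, a natural killer cell receptor, had 29 and 139 counts, while Cd3g, a T cell receptor chain, had 36 and 50 and a ratio of 1.19 (0.761 to 1.88). The part of these cells in the Itgal counts was not tested. Dendritic cell markers, whose cells share MHC class II, summed to 0.69 and 2.98 FPKM, with Clec9a at 13 and 74 counts. Of the other cell types looked for, B cell markers summed to 1.40 and 2.51 FPKM, with Pax5 and Blk listed in neither library, and epithelial carcinoma markers to 0.59 and 0.80 FPKM, with 0 genes of either list at 50 counts. Neutrophil markers summed to 86.5 and 111 FPKM, nearly all of it S100a8, and 0 of the 2 compared passed 2-fold.

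Endothelium and platelets also express Selp and Icam2. Of 10 endothelial markers 7 were listed, in sum at 4.45 and 6.67 FPKM, and Tie1, Emcn and Sele were listed in neither library. Of 6 platelet markers, Ppbp, Gp9, Gp1bb and Gp6 were listed in neither library, and Itga2b had 2 and 3 counts. Pf4, which macrophages transcribe as well, had 1398 and 766 and was the 1 platelet marker compared. It was at least 2-fold lower, with a ratio of 0.47 (0.43 to 0.514). Length adjustment took its log2 ratio from -1.09 to -0.69. Pecam1, shared by endothelium and leukocytes, had 45 and 128 counts and a ratio of 2.44 (1.73 to 3.51), while Icam2 had a ratio of 0.932.

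Markers of macrophages of other organs were compared as well. Of 13, 7 could be compared, with 4 at least 2-fold higher, 0 lower and 3 between, and a median log2 ratio of 1.02, or 1.34 when adjusted for length. Id3, which liver macrophages depend on, had 370 and 878 counts and a ratio of 2.04 (1.80 to 2.31), and Id1 34 and 121 counts and a ratio of 3.05 (2.07 to 4.61). Clec1b, a C-type lectin shared by liver and peritoneal macrophages, had 138 and 357 counts and a ratio of 2.22 (1.82 to 2.72), and Siglecf, a sialic acid receptor of alveolar macrophages and eosinophils, 42 and 127 counts and a ratio of 2.59 (1.82 to 3.77). Pparg, a nuclear receptor that alveolar macrophages depend on, went the other way with 611 and 432 counts and a ratio of 0.607 (0.535 to 0.687). Clec4f, the marker of liver macrophages, Car4 and Sall1 were listed in neither library. Cd5l and Vsig4, which liver macrophages share, lay between the 2-fold lines with ratios of 0.919 and 0.808.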

How the data were processed

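Libraries were run on a BGISEQ-500, per the labels' protocols. The deposited tables give expected counts and FPKM per Entrez gene with transcript lengths, per the file headers. The submitters' processing notes name HISAT2, Bowtie2, RSEM and mm10 and give neither version nor role. FPKM was scaled by the authors to transcript length and library size, per the file headers' unit name. The members, gene lists and settings were chosen with earlier results of these data known.

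A gene missing from a table was given 0 counts. Symbols and coordinates came from RefSeq of GRCm38.p6, which matched 15561 of 15605 identifiers. Expected counts were rounded and scaled with TMM factors of 0.921 (wild type) and 1.09 (knockout) in edgeR 4.0.16 and R 4.3.3. The length trend was a lowess curve of log2 ratio on log2 length with a span of 0.3 (statsmodels 0.14.6, Python 3.11.15). Named genes of each of 16 lists were the 3 with most counts and the 3 with the largest ratios, unless stated, and some of them are not reported here. The 12 alternatives covered scaling (DESeq2 1.42.0 size factors, totals, median centring, FPKM plus 0.1), minimums, pseudocounts, thresholds and length. The calculation was tested on simulated data, and recovered the genes changed there. Those genes were well counted and changed by more than the threshold, with counting error alone and no length trend. That run was therefore no check of the scarce genes. The intervals cover counting error only, as each genotype has 1 library. No molecular identifiers are described, so duplicate reads were not told apart and the intervals may be too narrow.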

Additional observations from a re-analysis of the deposited data

How the results depend on the processing

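No setting put any of the 4 abundant identity genes past 2-fold, in 12 alternatives. With a minimum of 10 counts or none, 1 identity gene, Prg4, was at least 2-fold higher. The median log2 ratio of the identity genes went from -0.11 to 0.13 with library totals and with deposited FPKM, to 0.18 with a minimum of 200 counts, which left 2 of them, and to 0.10 with the length trend removed. Over all genes, 575 higher and 165 lower became 1036 and 107 with library totals, 935 and 102 with FPKM, 921 and 436 with a minimum of 10 counts, 273 and 67 with 200, 1458 and 1533 with none, 1562 and 607 at 1.5-fold, 40 and 45 at 4-fold, and 203 and 180 with the length trend removed. The share of higher among all genes past 2-fold was 77.7% with TMM, 90.6% with totals and 53.0% with the length trend removed. No paired analysis was possible because each genotype has 1 library. Leaving out a library leaves no comparison, so none was left out. Depth limits Gata6, Rarb, Selp, Prg4, Apoc1 and Garnl3, of which 1, Gata6, had an interval within 2-fold either way.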
